A study of Mus musculus with 6 samples.

Results

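The transcriptome of the lens transition zone in control embryos was described from the 3 control libraries of a series of 6. They were chosen by their labels, and the other 3 libraries, which are mutant, were not compared with them. Each control library came from the transition zone of a mouse embryo lens at E14.5 of embryonic development, with the genotype Le-Cre on a strain given as a mixed background. Le-Cre is a transgene that makes Cre recombinase in the surface ectoderm lineage from which the lens forms, and the labels of the controls name no floxed allele. No group without Cre was analysed here. Embryos had been frozen in embedding medium, and RNA had been amplified as full-length cDNA with a SMART-seq kit for small inputs before Nextera library preparation. Whether a library is 1 embryo or a pool is not stated in the labels, so the spread between libraries may be technical in part.

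The lens grows from a front layer of dividing epithelial cells. At its equator, in the transition zone, these cells leave the cell cycle, elongate and begin to make fibre proteins, a step for which FGF signals from the surrounding eye are a main inducer and in which BMP, Wnt and Notch signals also act. Crystallins are the soluble proteins that fibres accumulate for transparency and refraction, and mature fibres later lose their nuclei and organelles.

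The 3 libraries held 16661203, 17092433 and 16162956 counts over 23420 genes. In libraries 1, 2 and 3, the 16 crystallin genes took 37.6%, 30.2% and 21.8% of all counts (29.9% ± 7.90, SD, n = 3). The exact 95% binomial intervals of the shares, which cover counting error only, did not overlap, and the library numbers, which come from the labels, happen to run from the highest share to the lowest. Levels of all other genes are given as CPM, here counts per 1000000 non-crystallin counts, which raises a value over plain CPM by 1.60, 1.43 and 1.28 times in libraries 1, 2 and 3. On that scale 11772, 11903 and 12047 genes reached 1 CPM, of which 531, 470 and 330 did so only because crystallins were left out. With crystallins in the total, 10860 genes reached 1 CPM in all 3 libraries, and 7296 had no count in any. A count of 0 allows up to 0.289, 0.251 and 0.237 CPM (3 counts) in libraries 1, 2 and 3. Any pair of libraries differed by more than sampling noise, with a chi-square of 45.8 to 146 per degree of freedom, and the median coefficient of variation between libraries beyond counting error was 0.20 over genes.

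The tissue label was checked against marker lists. All 10 early fibre and transition zone markers had a mean of at least 5 CPM, and their sum was 6437, 6144 and 6504 CPM in libraries 1, 2 and 3. Of 14 late fibre markers, 10 reached that level, with sums of 23299, 16770 and 15787 CPM. Lens epithelium markers were also present, 8 of 9 at 5 CPM or more, with sums of 692, 1310 and 1748 CPM, lowest in library 1 and highest in library 3. A wider list of 18 epithelium genes, which also holds the abundant secreted proteins Sfrp1, Sparc and Dkk3, summed to 8304, 7195 and 7078 CPM, highest in library 1. These bulk values cannot tell fewer cells of a type from less RNA per cell.

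**Figure D1:**
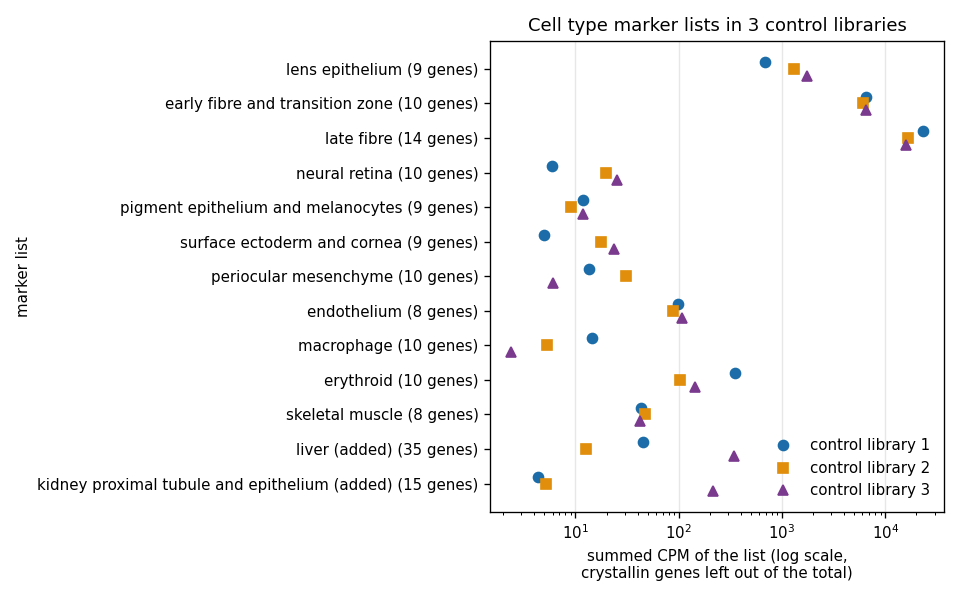
Summed level of each cell type marker list (rows, with the number of genes) in the 3 control libraries, as CPM without crystallin genes on a log axis. Early fibre markers lie together between 6144 and 6504 CPM, the 9 epithelium markers are lowest in library 1, and liver genes are highest in library 3.

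Markers of other tissues were low, with exceptions by library. Neural retina markers summed to 5.97, 19.8 and 25.4 CPM over 10 genes, nearly all from Hes5, a Notch target, and Crx and Six6 had no count. Of 9 pigment cell markers, Tyr, Tyrp1 and Rpe65 had no count, and the sum was between 9.05 and 11.9 CPM. Ttr, which is also on the liver list described below, gave 0, 0.251 and 6.25 CPM of it in libraries 1, 2 and 3. Mitf gave 9.91, 6.20 and 5.07 CPM. The 9 surface ectoderm and cornea markers summed to 4.91, 17.7 and 23.4 CPM, with Krt18 and Epcam the highest and Krt12 at 0. The 10 periocular mesenchyme markers summed to 13.5, 31.2 and 6.10 CPM and were mostly highest in library 2 (7 of 10). The 10 macrophage markers were highest in library 1, with 14.53, 5.28 and 2.37 CPM, as were the 10 erythroid markers, with 355, 104 and 145 CPM. The erythroid sum came mainly from embryonic globin Hbb-y (194, 70.8 and 91.3 CPM) and the beta-globin Beta-s (117, 26.6 and 42.1). Hba-a1 and Hba-a2 were at 0, which does not mean that globins other than Hbb-y were absent. The 8 endothelial markers gave 98.4, 88.9 and 108 CPM, mostly Tek and Egfl7, which were both highest in library 3. The other 6 endothelial markers, at no more than 5.39 CPM, were all highest in library 1, such as Cdh5 with 34, 2 and 1 counts. The 8 skeletal muscle markers gave 42.2 to 47.2 CPM, mostly Tnni1, with Myod1 and Myf5 at 0.

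Library 3 stood apart by liver genes, a list written after their values were seen. Of 35 listed liver genes, 34 had a count, and all 34 were highest in library 3, and the list summed to 45.5, 12.7 and 344 CPM. Transferrin (Trf) alone gave 42.1, 9.22 and 51.5 CPM of these sums, which is most of those in libraries 1 and 2. Albumin (Alb) had 4, 1 and 305 counts in libraries 1, 2 and 3. Apolipoprotein Apoa1 had 0, 0 and 111 counts, and complement C3 had 2, 0 and 260. Mup genes, near copies of one another whose counts one by one are uncertain, included Mup20 with 1, 1 and 236 counts. Spp1, the secreted phosphoprotein osteopontin, had 17, 2 and 1428. A kidney list of 15 genes, also written afterwards, summed to 4.33, 5.19 and 216 CPM, with Spp1, Cubn and Tm4sf4 among its counted members and Kap, Miox and Slc34a1 at 0. The origin of these counts was not tested.

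Variation between the libraries was described against the crystallin share. A gene was called higher or lower with the share when it ran in 1 direction over all 3 libraries, in CPM both with and without crystallins, and differed at least 2-fold between libraries 1 and 3 on the log2(CPM + 0.5) scale without crystallins. With 3 libraries whose order was measured in the same data, this is a description without a test. Of 10071 genes with a mean of at least 5 CPM, 128 (1.27%) were higher and 772 (7.67%) lower. Without asking for the order, 173 (1.72%) and 879 (8.73%) differed at least 2-fold between libraries 1 and 3. All genes together had a median log2 ratio of library 1 over library 3 of -0.16, and -0.47 with crystallins in the total. Scaling by TMM (trimmed mean of M-values), which moved the median to -0.01, gave 228 higher and 585 lower genes, so the lower share of calls went from 85.8% to 72.0%.

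Counted by genes at least 2-fold apart, most of the distance was between library 1 and the others. The chi-square per degree of freedom, with crystallins included, was closer, at 57.1 for libraries 1 and 2 and 45.8 for libraries 2 and 3. Library 1 was at least 2-fold below both others for 436 genes (4.33%) and at least 2-fold above both for 59 (0.586%). Of the 128 and 772 genes, 30 and 351 were also 2-fold apart between libraries 1 and 2. Libraries 2 and 3 alone gave 39 higher and 164 lower genes, of which 12 and 60 were among the 128 and 772. That rule was looser, asking only for 2-fold without crystallins and for no order. It covered 10155 genes with a mean of at least 5 CPM over libraries 2 and 3. Leaving out the liver and kidney lists took the lower genes from 772 to 769.

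The crystallin genes themselves came first in abundance. Cryaa, the alpha-crystallin chaperone, was the leading gene, with 15.5, 12.7 and 10.1% of all counts in libraries 1, 2 and 3. The beta-crystallin Cryba1 followed with 6.77, 5.69 and 3.93%. Crybb1, a beta-crystallin that rises early in fibre cells, had 3.82, 2.57 and 1.77%, and the gamma-crystallin Cryga 3.41, 2.73 and 1.69%. These 4 were each highest in library 1 and lowest in library 3. Per kb of exon, on the same non-crystallin scale, Cryaa at 139370.0 ± 44819.8 and Cryba1 at 102898 ± 37440.0 CPM per kb (mean ± SD, n = 3) had overlapping ranges over the libraries, and so did Cryba1 and Cryga at 61565 ± 26387.

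Further down, Crybb3 took 2.59, 2.13 and 1.53%, Cryba4 1.08, 0.811 and 0.534% and Cryba2 0.861, 0.665 and 0.466%, all beta-crystallins in the same library order. The gamma-crystallins Cryge (0.817, 0.716 and 0.467%), Crygc (0.771, 0.636 and 0.379%), Crygb (0.752, 0.449 and 0.222%), Crygn (0.467, 0.350 and 0.232%), Crygd (0.404, 0.271 and 0.154%) and Crygf (0.125, 0.112 and 0.0544%) also kept that order. The gamma genes from Cryga to Crygf are near copies, so how counts were divided among them is uncertain. In all, 13 of 16 genes were higher with the crystallin share, which they make up, so this order is a description and not a result.

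The exceptions were 3. Cryab, a small heat shock protein that the epithelium and other tissues also make, had 0.183, 0.232 and 0.278% and was lowest in library 1. Crygs, which is typical of later fibres, had 0.0429, 0.0614 and 0.0449% and no order. Crybb2, which is abundant in postnatal lens, had only 134, 140 and 188 counts.

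The size of the difference was not the same for every crystallin. Crygb was 2.09 (log2) higher in library 1 than in library 3 per total of non-crystallin counts, and Crygd 1.71, against 0.95 for Cryaa and -0.28 for Cryab. By family, gamma-crystallins made up 18.04%, 17.7% and 14.9% of crystallin counts in libraries 1, 2 and 3. Alpha-crystallins went the other way, at 41.8%, 43.0% and 47.5%, and beta-crystallins lay at 40.2%, 39.3% and 37.7%.

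**Figure D2:**
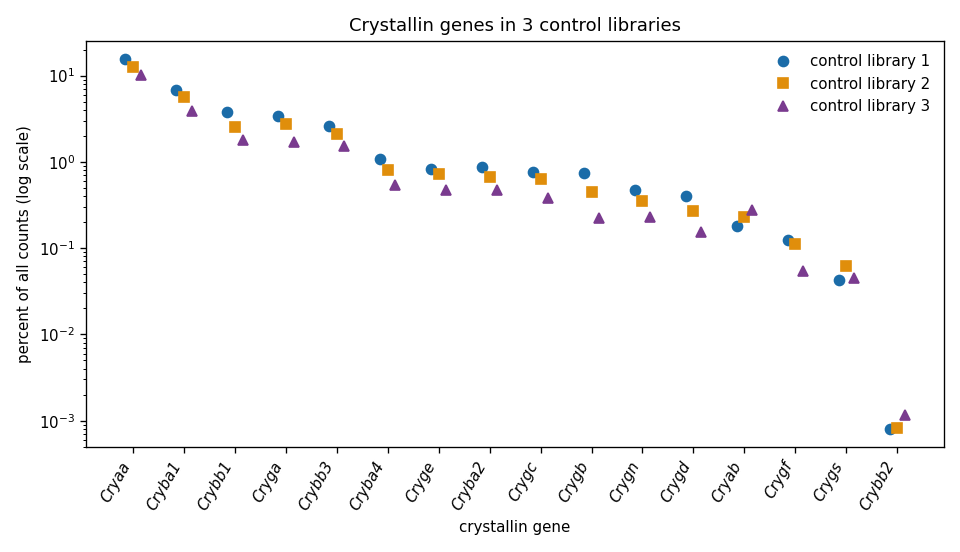
Percent of all counts taken by each of 16 crystallin genes (log axis) in the 3 control libraries. Cryaa leads in each library with 10.1 to 15.5%, most genes are highest in library 1 and lowest in library 3, and Cryab and Crybb2 run the other way.

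The promoters of 3 crystallin genes are shown because these genes lie at the top, high and near the bottom of this range of levels. The sequences are from RefSeq (GRCm38.p6), are the 250 bases before the start in the gene's direction, and lie on chromosome 17 for Cryaa (chr17:31677681-31677930, plus strand), chromosome 5 for Crybb1 (chr5:112255570-112255819, plus strand) and chromosome 16 for Crygs (chr16:22811411-22811660, minus strand). Capitals mark TGCTGA on either strand, which is part of the Maf recognition element that lens Maf factors bind, and TATAAA on the gene's own strand.
Cryaa: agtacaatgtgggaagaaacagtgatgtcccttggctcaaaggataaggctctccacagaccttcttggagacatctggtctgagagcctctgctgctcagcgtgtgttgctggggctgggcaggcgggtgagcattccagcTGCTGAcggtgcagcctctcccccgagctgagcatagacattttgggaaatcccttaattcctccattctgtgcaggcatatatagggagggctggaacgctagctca
Crybb1: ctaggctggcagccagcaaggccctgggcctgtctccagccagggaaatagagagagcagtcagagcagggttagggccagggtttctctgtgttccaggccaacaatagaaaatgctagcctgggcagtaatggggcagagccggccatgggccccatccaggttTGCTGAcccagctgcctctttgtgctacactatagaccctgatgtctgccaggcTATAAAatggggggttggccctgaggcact
Crygs: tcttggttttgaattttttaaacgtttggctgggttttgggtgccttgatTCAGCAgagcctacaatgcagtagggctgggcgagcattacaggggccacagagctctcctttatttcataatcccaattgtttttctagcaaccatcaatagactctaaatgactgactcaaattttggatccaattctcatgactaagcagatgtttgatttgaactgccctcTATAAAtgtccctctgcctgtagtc
In Cryaa, TGCTGA began 108 bases before the start and no TATAAA was present. Crybb1 had TGCTGA at 84 bases and TATAAA at 30 bases before the start. Crygs had the reverse complement of TGCTGA at 200 bases and TATAAA at 25. Of 15 crystallin genes with a promoter entry, 10 held TGCTGA (66.7%), against 16.1% of 32851 promoters of the same length. TATAAA was in 3 of the 15, Crybb1, Cryba1 and Crygs, against 7.59% of all promoters. Those without TGCTGA were Crygb, Crygd, Cryge, Crygf and Crybb2. A match is a description of the letters and not a binding site.

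Outside the crystallins, the most abundant transcripts were lens membrane, fibre and housekeeping genes. Capn3, a calpain protease gene with lens-specific forms, was the highest by CPM, with 22976, 10131 and 8564 CPM in libraries 1, 2 and 3. Library 1 was more than 2 times either other library. The gap junction connexin Gja3 had 3469, 2594 and 2206 CPM. Lim2, a fibre membrane protein, had 4909.5, 3079.8 and 2126 CPM, and the lens water channel Mip had 3032, 1791 and 1701. Gje1, a connexin-family gene, had 3076, 2001 and 1365. Capn3, Lim2 and Gje1 were higher with crystallin share.

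The cell cycle inhibitor Cdkn1c, which marks cells leaving the cycle, differed little between libraries, at 3311, 3089.9 and 3045 CPM. Tubulin Tuba1a had 4200.4, 3609 and 2787 CPM, the ATP synthase subunit Atp5b 3577, 3177 and 3024, and the surface protein Cd24a 3781, 3032 and 2263. The chaperone Hsp90ab1 had 3105, 2977 and 2733, the secreted Igfbp7 3269.8, 3000.5 and 2103, and the histone chaperone family member Nap1l4 3276, 2161 and 1728. Metabolic and translation genes followed. Gapdh (2188, 2260.3 and 2248) and Pkm (2140.1, 2107 and 2107), both of glycolysis, hardly differed between libraries, and the elongation factor Eef1a1 had 1886, 2614 and 2460.5 CPM. The ferritin chain Ftl1 had 2229, 2189 and 1909, Eif4g2 1981, 1880.4 and 2174, Eif5a 1894, 2136 and 1851, the fatty acid desaturase Scd2 2356, 1708 and 1698 and Nt5dc2 1747, 1878 and 1955. The glucose transporter Slc2a1 went against the share, with 1199, 1998 and 2449 CPM. A pair of noncoding RNAs belonged here. The nuclear RNA Malat1 had 11622, 6242 and 4078 CPM, highest in library 1, and the ribosomal precursor Rn45s had 2535, 5597 and 5258, lowest there.

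The 25 leading non-crystallin genes took 10.7%, 8.01% and 7.31% of non-crystallin counts. Sorted by function, the 100 highest genes by CPM held 11 chaperone and protein folding genes, 10 membrane channel, junction or transport genes, 7 of the cytoskeleton, 6 for RNA binding, and 5 each for glycolysis, extracellular matrix and translation factors, with 38 in none of the classes. Ranked per kb of exon, 61 genes stayed among the 100. The makeup shifted to short transcripts, with 19 ribosomal protein and 11 oxidative phosphorylation genes, 7 membrane genes, 6 chaperones and 6 cytoskeleton genes. On that scale the respiratory subunit Ndufa1 (3915 ± 381 CPM per kb), Capn3 (3889.8 ± 2214) and Lim2 (3814 ± 1600.0) led, and their ranges over the libraries overlapped.

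Of 642 listed transcription factor genes, 261 (40.7%) had a mean of at least 5 CPM, close to the 43.0% of all non-crystallin genes. Only 34 reached 100 CPM, and 165 had no count, among them all 39 Hox genes. Per kb of exon the highest was Pitx3, a homeobox factor needed for lens development, with 345, 411 and 430.3 CPM per kb in libraries 1, 2 and 3. Foxe3, a forkhead factor of the lens epithelium, had 76.0, 340.4 and 466, so it was above Pitx3 in library 3 and far below it in library 1. The Id proteins, which block basic helix-loop-helix factors and are BMP targets, split. Id2 had 258, 197 and 122 CPM per kb and Id1 68.6, 50.2 and 31.2, highest in library 1, while Id3 had 95.3, 215 and 252, highest in library 3.

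The Myc family factor Mycn followed at 184, 167 and 156, the eye homeobox factor Hmx1 at 131, 169.9 and 164, the nuclear receptor Nr2f6 at 90.4, 116 and 115 and the eye regulator Mab21l1 at 82.1, 92.1 and 109 CPM per kb. The remaining leading factors were E2f5 and E2f6, cell cycle factors, Jund of AP-1, the stress factor Atf4, Tcf25, Prox1 and Etv5, with means between 66.2 and 89.4 CPM per kb. Prox1, a homeobox factor that drives fibre differentiation, had 68.2, 59.2 and 75.1 CPM per kb and showed no order. Etv5, an FGF-induced factor of the Pea3 family, had 78.4, 60.5 and 59.6. In this order of 15, 13 of 14 neighbouring pairs had ranges that overlapped, and 3 had the same order in all 3 libraries. The pair that did not overlap was Hmx1 above Nr2f6.

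Further lens regulators belong to the Maf, Pax and Sox families. Among 6 Maf genes, 5 reached 5 CPM. Maf, the large Maf factor that activates crystallin genes, was the highest by CPM with 492, 463 and 425, followed by the small Maf Mafg with 163, 133 and 123. Mafk (36.8, 28.7 and 35.5) and Mafa (6.93, 8.55 and 6.02) were low. Among 9 Pax genes only Pax6, the master eye regulator, reached 5 CPM, with 176, 267 and 306. Among 19 Sox genes, 7 did so. Sox1, which acts in fibre elongation and gamma-crystallin expression, had 84.3, 91.4 and 85.2 CPM, Sox13 109.5, 79.3 and 106 and Sox12 41.3, 63.8 and 69.2. Sox2, of the early placode, had 9.53, 10.5 and 13.4, and Sox4 (22.6, 38.5 and 45.6), Sox11 (8.28, 14.1 and 17.3) and Sox9 (5.10, 7.96 and 7.05) were also low.

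The Pea3 family of ETS factors, the target of the series' mutants per its title, was carried mainly by Etv5 in the controls. Etv5 had 316, 244 and 240.2 CPM and Etv1 58.4, 77.4 and 101, and Etv4 had 39, 35 and 58 counts. Hsf4, the heat shock factor of fibre cells, had 108, 67.4 and 43.5 CPM, and was higher with crystallin share.

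**Figure D3:**
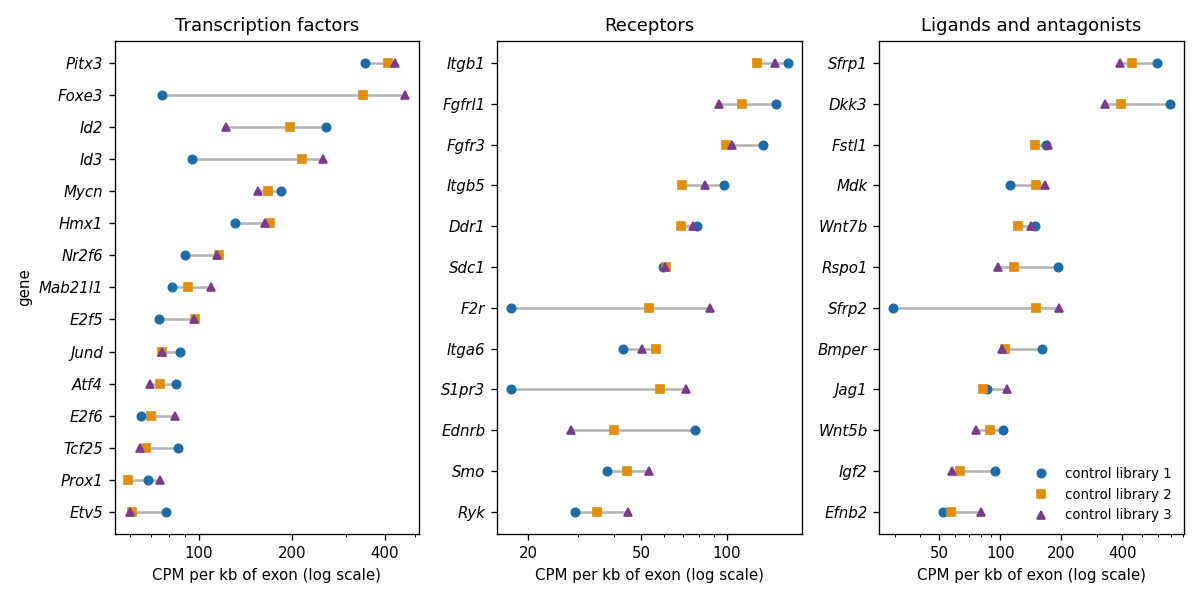
Leading transcription factor, receptor and ligand or antagonist genes ranked by mean level per kb of exon (log axis, CPM per kb without crystallin genes), with 1 point per control library and a bar for the range. Most neighbouring ranges overlap, and Foxe3, F2r, S1pr3 and Sfrp2 have library 1 far to the left.

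Of 174 listed receptor genes, 89 reached 5 CPM and 24 reached 100 CPM. Integrin beta 1 (Itgb1), the shared chain for laminin and collagen receptors, was highest per kb at 164, 128 and 148. The FGF receptor family was prominent. Fgfrl1, which binds FGF but lacks a kinase, had 149, 113 and 93.5 CPM per kb, and Fgfr3 had 135, 99.2 and 104. Fgfr1 was lower at 25.4, 29.5 and 36.1, as was Fgfr2 at 23.0, 23.5 and 38.0 CPM per kb, and Fgfr4 had 0, 0 and 5 counts. Thus 4 of the 7 genes of the FGF receptor list reached 5 CPM. None was called in either direction, which in a list this small is near the shares of all genes, 1.27% higher and 7.67% lower.

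Further leading receptors were Itgb5, the collagen receptor kinase Ddr1, the proteoglycan Sdc1, Itga6, the Hedgehog transducer Smo and the Wnt co-receptor Ryk, with means from 36.5 to 83.6 CPM per kb. Sdc1 varied little, with 59.5, 61.2 and 60.5. The thrombin receptor F2r had 17.4, 53.2 and 87.2 CPM per kb and the sphingosine phosphate receptor S1pr3 17.4, 58.0 and 71.9, both lowest in library 1. The endothelin receptor Ednrb had 77.5, 40.0 and 28.4, highest there. Of 11 neighbouring pairs in this order of 12, 9 overlapped, and Fgfr3 above Itgb5 and Ddr1 above Sdc1 did not. Of the 11, 5 had the same order in all 3 libraries.

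The receptors of BMP and TGF-beta were expressed at moderate levels, with 7 of 14 at 5 CPM or more. Tgfbr1 had 119, 90.0 and 137 CPM and the type I BMP receptor Bmpr1a 70.3, 75.2 and 106. Acvr2b, an activin receptor, had 54.8, 64.5 and 70.6 CPM, Acvr2a 34.7, 49.4 and 45.9, Tgfbr3 15.4, 15.7 and 23.1, Bmpr2 8.18, 10.1 and 5.86 and Acvr1 4.52, 8.04 and 10.9. Of these 7, 1 was lower with crystallin share, Acvr1. Notch receptors were low, and the 3 at 5 CPM or more were all lower with crystallin share, against 7.67% of all genes. Notch1 had 14.6, 23.9 and 36.7 CPM, Notch2 3.46, 9.89 and 22.6 and Notch3 20.1, 32.3 and 50.9.

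Of 195 listed ligand and antagonist genes, 51 reached 5 CPM and 49 had no count. Secreted Wnt and BMP antagonists led. Sfrp1, a secreted Wnt antagonist, had 595, 446 and 392 CPM per kb, and Dkk3, a dickkopf family protein, 689, 396 and 329.8, with ranges that overlapped. Fstl1 followed with 169, 148 and 173, the heparin-binding Mdk with 111, 151 and 166, and the R-spondin Rspo1, which strengthens Wnt signals, with 193, 117 and 97.2. Sfrp2 had 29.5, 149 and 195, so it ran against its relative Sfrp1. Bmper, a BMP-binding protein, had 161, 105 and 102 CPM per kb.

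Among the Wnt ligands, Wnt7b was highest with 148, 122 and 142 CPM per kb, and Wnt5b had 104, 89.0 and 76.2. Jag1, the Notch ligand of the transition zone, had 86.0, 82.2 and 107. Igf2, a growth factor, had 93.8, 63.2 and 57.5 and the ephrin Efnb2 51.8, 57.3 and 80.2. In this order of 12, 10 of 11 neighbouring pairs overlapped, and Dkk3 above Fstl1 did not. Of the 11, 2 had the same order in all 3 libraries.

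FGF ligand genes were at or near 0. Of 22, 14 had no count, Fgf1 had 7, 28 and 25 counts, Fgf9 had 3, 4 and 2, and Fgf13 had 0, 50 and 73. The exception at 5 CPM or more was Fgf12, with 88.4, 61.1 and 36.0 CPM, which codes for a protein that stays inside the cell and does not signal through FGF receptors. Other ligand families had few members. Of 28 BMP and TGF-beta ligands, 3 reached 5 CPM, Tgfb2 with 143, 170.1 and 151, Bmp7 with 21.3, 31.7 and 38.9 and Tgfb3 with 8.37, 9.13 and 14.8 CPM, and Bmp4 had 2, 0 and 0 counts. Of 8 Notch ligand genes, Jag1 (483, 461 and 603 CPM) and the noncanonical Dner (25.02, 15.2 and 8.63) reached 5 CPM.

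Among genes higher with the crystallin share, those with the largest ratios at a mean of 20 CPM or more were taken first. Pla2g7, a phospholipase A2 that acts on platelet-activating factor, had the largest of these, with 1437, 473 and 79.9 CPM, a log2 ratio of 4.16. Pgam2, a glycolytic mutase known from muscle, had 476, 236 and 127 CPM and the sterol regulator Insig1 226, 97.4 and 67.6. Fam89a had 154, 76.2 and 42.9, the growth arrest gene Ndrg1 128, 63.8 and 38.1 and the stress gene Gadd45g 104, 60.2 and 34.8. The secreted C1qtnf1 had 77.3, 31.8 and 20.3, the phosphodiesterase Pde2a 57.7, 23.8 and 15.4, Palm2 69.3, 35.4 and 19.3, Snx22 106, 42.0 and 32.0, Gstp2 37.2, 17.8 and 11.6 and the homeobox factor Pbx4 33.7, 19.4 and 10.8. All 12 had log2 ratios of at least 1.56.

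Among 16 late fibre structure genes at 5 CPM or more, 7 were higher with the share (43.8%, against 1.27% of all genes) and none lower (against 7.67%), with a median log2 ratio of 0.81 against -0.16 for all genes. Bfsp1, a beaded filament protein of fibre cells, had 926, 533 and 317 CPM, and its partner Bfsp2 had 815, 524 and 362. Tdrd7, an RNA granule protein needed for a clear lens, had 2297, 1297 and 1054, Caprin2 1056, 660.0 and 442 and the actin-capping Tmod1 85.2, 53.6 and 29.3. The other members called were Lim2 and Hsf4. The connexin Gja3 and the water channel Mip, with log2 ratios of 0.65 and 0.83, did not reach 2-fold. Dnase2b, the nuclease that degrades fibre nuclei, had 52, 38 and 3 counts. Of the 14 late fibre markers, Dnase2b among them, 12 were highest in library 1. Grifin was highest in library 2, with 590, 694 and 530 CPM, and Lgsn in library 3, with 3, 11 and 26 counts. None of 10 early fibre markers was called in either direction, with a median of -0.15, and at the shares of all genes a count of 0 in a list of this size is near the background.

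**Figure D4:**
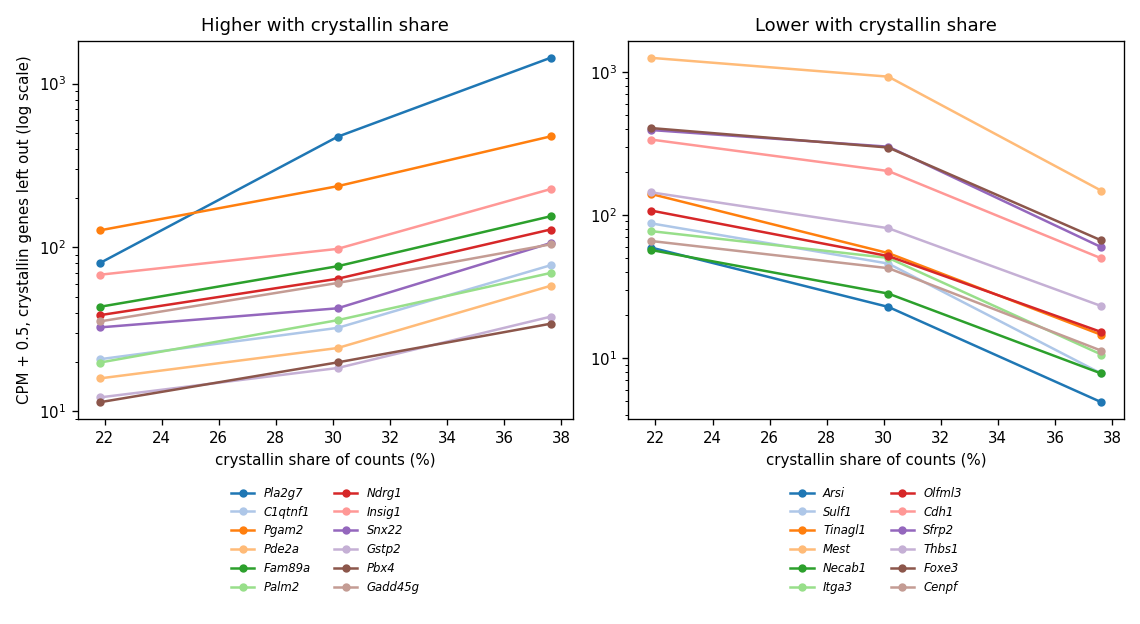
Levels (CPM + 0.5 without crystallin genes, log axis) of the 12 genes with the largest positive and the 12 with the largest negative ratio among those at 1 CPM or more in all 3 libraries, against the crystallin share of the 3 control libraries. Pla2g7 climbs from 79.9 to 1437 CPM, and most genes on the right fall mainly between library 2 and library 1.

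Among genes lower with the share and at a mean of 20 CPM or more, the epithelial cadherin Cdh1 had 49.3, 202 and 336 CPM and a log2 ratio of -2.76. Foxe3 had 65.9, 295 and 404 CPM (-2.61) and Sfrp2 59.1, 299 and 391 (-2.72). Mest, an imprinted gene, had 147, 923 and 1251 CPM. Among matrix and adhesion genes, Thbs1 had 22.6, 80.3 and 143, Tinagl1 14.05, 53.6 and 139.7, Olfml3 14.7, 51.1 and 107 and integrin alpha 3 (Itga3) 10.1, 49.6 and 76.6 CPM. The sulfatases Arsi (4.43, 22.3 and 58.7) and Sulf1 (7.31, 45.2 and 86.9), the latter an enzyme that trims heparan sulfate, and the calcium-binding Necab1 (7.31, 27.7 and 56.4) completed this group.

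Of 17 lens epithelium genes at 5 CPM or more, 7 were lower (41.2%, against 7.67% of all genes) and 1 higher (5.88%, against 1.27%), with a median log2 ratio of -0.86. The lower genes were Foxe3, Cdh1, Sfrp2, the growth factor receptor Pdgfra, connexin Gja1, the matrix protein Npnt and the Notch target Hes1. The higher one was Dkk3 (2313, 1331 and 1108 CPM), and Sfrp1, Sparc and Cpe had positive ratios below the call, so members of this list went both ways.

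In both cell division lists every gene at 5 CPM or more was lower in library 1. All 42 G2 and M phase genes were lower in library 1 than in library 3, with a median log2 ratio of -1.78, and 38 (90.5%) were called lower. All 42 S phase genes likewise had negative ratios, with a median of -1.50, and 27 (64.3%) were called, where 7.67% of all genes were called lower. Ratios were negative for 6492 of all 10071 genes. No member of either list was called higher. Cyclin B1 (Ccnb1) had 67.8, 183 and 226 CPM, its kinase Cdk1 42.8, 134 and 149 and topoisomerase Top2a 39.6, 103 and 160.5. The ubiquitin enzyme Ube2c had 58.9, 171 and 199, Cdc20 52.8, 141 and 147 and Ccna2 46.6, 118 and 166. Among S phase genes, the helicase subunit Mcm2 had 166, 257 and 279.8 CPM, Mcm5 had 33.2, 98.1 and 147 and Mcm7 had 56.8, 127 and 168. Rrm1, for nucleotide reduction, had 61.2, 138 and 156, the clamp loader subunit Rfc2 87.2, 125 and 127 and Uhrf1 41.6, 96.4 and 134. The size of these differences rested on library 1. Without it, the medians between libraries 2 and 3 were -0.44 for G2 and M phase and -0.16 for S phase. The 9 markers of lens epithelium, and at far lower levels those of retina and cornea given above, were also lowest in library 1. Macrophage and erythroid markers, and 6 of the 8 endothelial markers, were highest there. The part of any of these markers in the differences was not tested.

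**Figure D5:**
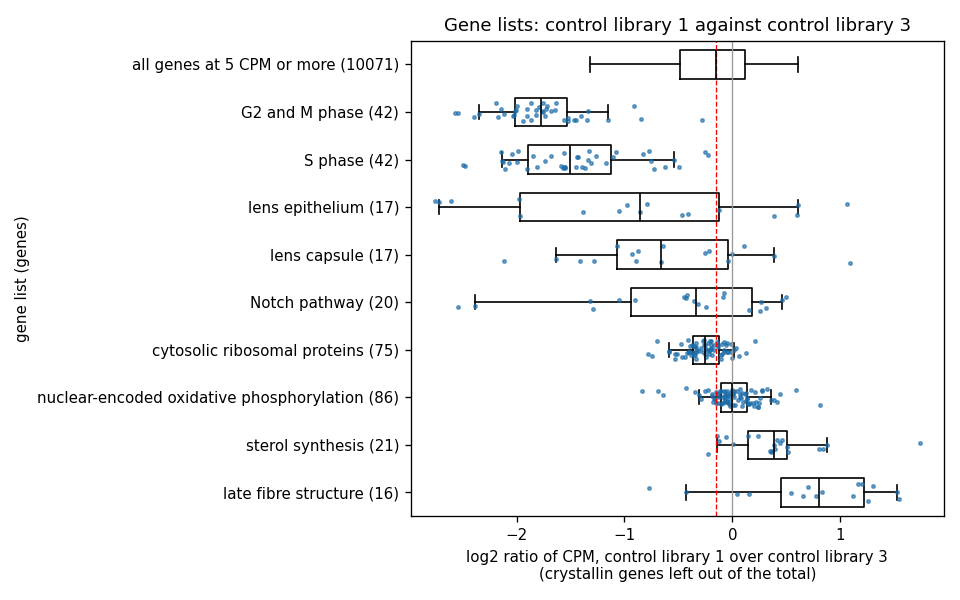
Log2 ratio of library 1 over library 3 for genes at 5 CPM or more, by list (points are genes, boxes span the quartiles, whiskers reach the 5th and the 95th percentiles, the dashed line is the median of all genes at -0.16). Cell division genes lie to the left, late fibre structure genes to the right, and ribosomal and oxidative phosphorylation genes near the median of all genes.

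Of 16 cell cycle exit genes, none was higher, against 1.27% of all genes, and 4 of 16 were lower, against 7.67%, namely Cdkn1a, Cdkn2c, Btg1 and Gas1. The cyclins Ccnd2 (815, 746 and 1001 CPM) and Ccnd3 (723, 745 and 703) showed no order, and Ccnd1 was highest in library 2 with 72.7, 231 and 99.2.

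The counts of the signalling lists stand beside the 1.27% of all genes called higher and the 7.67% called lower. Of 20 Notch pathway genes, 5 were lower, the receptors Notch1, Notch2 and Notch3 and the targets Hes1 (22.4, 33.9 and 47.1 CPM) and Hes5, while the ligand Jag1 and the processing genes Adam10 (321, 229.6 and 266) and Ncstn (261, 207 and 209.8) were not called. Of 10 BMP and TGF-beta target genes, Id1 and Id2 were higher and Id3 and Ctgf lower, so the list had no single direction. Of 15 ERK feedback genes, which FGF induces, only Egr1 was called, lower, and Spry1 (229, 230.0 and 178 CPM), Dusp6 (55.6, 87.5 and 92.2) and Etv5 were not. Of 12 YAP target genes, 4 were lower, Ctgf, Cyr61, Amotl2 and Ajuba, and none was higher. Of 6 Wnt target genes, Lgr4 and Znrf3 were lower. Of the 261 transcription factors, 4 were higher (1.53%) and 30 lower (11.5%). Of the 89 receptors, 2 were higher (2.25%) and 27 lower (30.3%), and of the 51 ligands and antagonists 4 were higher (7.84%) and 10 lower (19.6%). The receptor median was -0.61, the lowest of the 3 classes, with the transcription factors at -0.34 and the ligands at -0.33.

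Of 17 lens capsule genes, 5 were lower (29.4%, against 7.67% of all genes) and 1 higher (5.88%, against 1.27%). The laminins Lama1 and Lamc1, Hspg2, Agrn and Frem2 were lower and Nid2 was higher, while collagen IV genes Col4a1 (1709.6, 1693 and 1981 CPM) and Col4a2 (892, 871 and 1061) were not called. None of 75 ribosomal protein genes was called (median -0.25), none of 86 nuclear-encoded oxidative phosphorylation genes (median -0.003), and none of 27 autophagy and lysosome genes (median 0.20). Of the 75 ribosomal protein genes, 70 had negative ratios, against 6492 of all 10071 genes. The ribosomal list summed to 19545, 26374 and 23270 CPM, lowest in library 1. Of 15 glycolysis genes, Slc2a1 and Ldha (645, 1280.4 and 1304 CPM) were lower. Among 21 sterol synthesis genes, 17 had positive ratios, against 3578 of all 10071 genes. Their median was 0.39, but only Insig1 was called. Hmgcs1, an early enzyme of the pathway, had 501, 399.6 and 351 CPM. Of 21 stress response genes under ATF4 and the unfolded protein response, Phgdh (279.8, 688 and 823), Slc7a11 and Sdf2l1 were lower. Of 11 tubulins, Tubb2a was higher (328, 205 and 142) and Tuba1b (189, 357 and 409.7), Tuba1c and Tubg2 lower, although Tuba1a, the most abundant, was not called.

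Some genes separated 1 library without following the share. Library 2 was at least 2-fold above both others for 9 genes (0.0894%) and below both for 23 (0.228%). Tmem132c had 222 counts in library 2 and 0 in both others. Hebp1 had 1.06, 25.9 and 2.53 CPM, collagen Col6a3 128, 319 and 105 and the smooth muscle actin Acta2 2.98, 17.4 and 6.33, all highest in library 2, where mesenchyme markers were also highest, and their part in these values was not tested. R3hdml had 3.66, 54.0 and 23.9. On the low side, Fn3krp, a protein repair kinase, had 261, 12.2 and 163 CPM, so library 2 was far below the others. Cep128 had 63.3, 11.1 and 41.4, Cwc22 81.2, 29.7 and 97.6, transferrin (Trf) 42.1, 9.22 and 51.5 and the corepressor Tle3 32.9, 9.55 and 31.9. Library 3 was at least 2-fold above both others for 82 genes (0.814%) and below both for 28 (0.278%).

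Of 23404 non-crystallin genes, 20 (0.0855%) had 3 or fewer counts in a library and 100 or more in another. Among those with most counts were Spp1, Alb, C3, Mup20 and Serpina3k, each with 215 or more counts in library 3 and at most 17 in libraries 1 and 2. Others were Tmem132c, and Efr3b, which had 2, 76 and 168 counts.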

How the data were processed

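RNA-seq counts of 3 control libraries of the lens transition zone were used. The values are raw read counts by gene symbol that the authors deposited without normalization, once for the whole series and once per library, with 0 genes differing between these. Per the submitters' processing notes, the build was mm9 and the tools included TopHat, Cufflinks, DESeq and bcl2fastq 1.8.4, with no role given for any. How reads were counted, with which annotation and strand, is not given in the sources used here. Per the labels, the kit is of the SMART-seq type, which does not mark strand and has no molecular identifiers, so overlapping and antisense genes may share counts. No gene with a mitochondrial genome name was among the 23420 genes.

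Counts were divided by library totals with and without 16 crystallin genes. Levels per kb used the union of exons in GENCODE M21 (found for 23055 genes, build GRCm38), for lengths only. Log ratios used 0.5 CPM as pseudocount, a mean of at least 5 CPM, and 2-fold. With 1 group there was no test. TMM factors and the coefficient of variation came from edgeR 4.0.16 and size factors from DESeq2 1.42.0, in R 4.3.3. Tables were made in Python 3.11.15. The calls and the coefficient of variation were tested on simulated data. Members and gene lists were chosen with earlier results of these data known.

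Genes are named by this rule. It takes all crystallins; the 25 most abundant other genes; the 15 transcription factors, 12 receptors and 12 ligands highest per kb; members at 5 CPM of the FGF, Notch, BMP, Pea3, Maf, Sox and Pax lists; the 12 largest ratios each way at 20 CPM; up to 6 members per process list; the 8 genes most apart each way in library 2; and the 8 largest that were on in some libraries and off in others. Names of predicted genes, pseudogenes, antisense and small RNAs were passed over, which left out 6 of the higher and 23 of the lower genes. Other genes named, among them the remaining called members of lists, marker genes, Hsf4, Dnase2b, Etv4, Fgfr4, Fgf1, Fgf9, Fgf13 and Bmp4, were chosen after their values were seen. Some genes that the rule takes are not reported here.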

Additional observations from a re-analysis of the deposited data

How the results depend on the processing

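No paired analysis was possible because there was only 1 group. The number of genes higher with crystallin share was 128, and it became 51 with crystallins in the total, 228 with TMM and 231 with DESeq2 size factors. It was 259, 68 and 401 with a mean of 1 CPM, a mean of 20 CPM and no filter, and 347 and 35 at 1.5-fold and 3-fold. Also asking for 2-fold between libraries 1 and 2, chosen after seeing the data, gave 30. The number of lower genes was 772, and it became 1370 with crystallins in the total, 392 at 20 CPM and 1308 with no filter, 1660 and 278 at 1.5-fold and 3-fold, and 351 with the added rule. With TMM and DESeq2 it was 585 and 578. Lower genes made up 85.8% of calls, 96.4% with crystallins in the total, and 72.0% and 71.4% with TMM and DESeq2. With 1 library left out, the rule was looser, asking only for 2-fold between the remaining 2 and for no order. Leaving out 1 library gave 39 to 187 higher and 164 to 877 lower genes, the lowest without library 1, and 447 lower without library 3. It also gave medians from -1.56 to -0.16 for S phase and from -1.78 to -0.44 for G2 and M phase, the smallest without library 1. With crystallins in the total these medians were -1.82 and -2.09. Of 210 medians of 21 other lists, 139 moved by less than the spread, 71 moved by more and 0 reversed. With the longest transcript as length, chosen after seeing the data, 13 of 15 transcription factors, 11 of 12 receptors and 12 of 12 ligands stayed in the leading sets. The cause of these shifts was not tested. Depth limits genes under about 0.289 CPM. No alternative without mitochondrial genes was run, since none was among the counted genes.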
